A study of Homo sapiens with 4 samples.

Results

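The clustered protocadherin genes of human chromosome 5 were examined in 4 chromatin accessibility libraries of HepG2, a human hepatocellular carcinoma line. The genes were taken from GENCODE release 44 on the hg38 assembly as the protein-coding genes of chromosome 5 whose symbol begins with PCDHA, PCDHB, PCDHGA, PCDHGB or PCDHGC, which gave 53 of 20033 coding genes. They comprised 15 genes of the alpha cluster, 16 of the beta cluster and 22 of the gamma cluster. All peaks overlapping positions 140700000 to 141600000 of the chromosome were collected and given to a gene when they lay in its body or within 2 kb on either side. This left 17 called peaks in 13 merged regions, of 80551 merged regions in the whole series. Accessibility had been profiled by Omni-ATAC-seq, in which a transposase cuts open DNA and inserts sequencing adapters. There were 2 libraries of untreated wild-type HepG2 cells (control) and 2 of wild-type HepG2 cells kept for 48 h in 5 µM tazemetostat. Each library was made from 50000 cells. Tazemetostat, supplied in DMSO, inhibits EZH2, the enzyme of polycomb repressive complex 2 that methylates histone H3 at lysine 27. The labels call the controls untreated and mention no DMSO for them, so drug and solvent cannot be told apart. Nothing in the labels says that the 2 libraries of a group came from separate cultures, so the spread between them may be technical.

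Clustered protocadherins are adhesion proteins of the cell surface, best known from neurons, where each cell uses its own combination of them and thereby distinguishes its own branches from those of other neurons. In the alpha and gamma clusters each gene has its own promoter and a large variable exon that codes for the outer part of the protein, and all genes of a cluster share a set of constant exons at the far end. The beta genes are single variable exons with no constant part. Most of these promoters carry a short conserved element around the letters CGCT, and the factor CTCF together with cohesin is known to bring chosen promoters into contact with distant enhancers. Their expression is highest in the nervous system, and DNA methylation of the promoters goes with silence of the genes.

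Because each gene begins at its own start site, the DNA at the start sites was looked at first. The sequences were read from RefSeq promoter windows on GRCh38.p14, each reaching from 250 bases before to 50 bases after a start, and 47 of the 53 genes matched, with 52 windows. The unmatched genes were PCDHA3, PCDHA13, PCDHB6, PCDHB11, PCDHGA12 and PCDHGC5. Shown here are 130 bases, 110 before the annotated start and 20 from the start on, for the 7 genes whose start lay inside a called peak, with PCDHA1 added for comparison as the first alpha gene along the chromosome that holds the alpha word. All are on the plus strand and are written 5′ to 3′. Capitals mark the 8-letter word found in the largest number of matched genes of that gene's own cluster.
PCDHA1, chr5:140786030-140786159: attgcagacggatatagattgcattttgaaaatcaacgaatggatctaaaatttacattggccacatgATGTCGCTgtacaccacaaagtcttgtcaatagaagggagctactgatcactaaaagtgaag
PCDHB2, chr5:141094505-141094634: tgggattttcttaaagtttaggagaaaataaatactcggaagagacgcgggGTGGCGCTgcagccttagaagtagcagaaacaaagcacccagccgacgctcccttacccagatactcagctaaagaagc
PCDHB8, chr5:141177680-141177809: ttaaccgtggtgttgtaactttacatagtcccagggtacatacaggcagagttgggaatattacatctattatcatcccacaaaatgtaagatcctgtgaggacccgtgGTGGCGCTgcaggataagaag
PCDHB13, chr5:141213809-141213938: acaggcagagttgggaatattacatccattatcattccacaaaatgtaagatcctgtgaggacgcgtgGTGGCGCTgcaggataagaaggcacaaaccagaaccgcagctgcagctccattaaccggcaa
PCDHGA1, chr5:141330404-141330533: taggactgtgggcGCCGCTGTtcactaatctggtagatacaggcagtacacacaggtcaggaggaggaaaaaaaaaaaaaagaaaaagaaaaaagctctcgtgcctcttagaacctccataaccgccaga
PCDHGB1, chr5:141349989-141350118: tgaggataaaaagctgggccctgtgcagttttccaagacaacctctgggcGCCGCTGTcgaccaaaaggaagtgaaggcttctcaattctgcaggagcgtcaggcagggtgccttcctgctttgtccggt
PCDHGB4, chr5:141387588-141387717: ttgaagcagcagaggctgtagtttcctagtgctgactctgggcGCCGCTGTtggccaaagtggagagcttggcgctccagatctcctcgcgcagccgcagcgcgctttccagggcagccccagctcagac
PCDHGB7, chr5:141417567-141417696: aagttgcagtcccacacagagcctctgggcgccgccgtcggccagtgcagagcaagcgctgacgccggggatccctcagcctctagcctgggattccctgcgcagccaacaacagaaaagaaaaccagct
The alpha word is ATGTCGCT, the beta word GTGGCGCT and the gamma word GCCGCTGT, and each was searched on both strands. All 3 contain the letters CGCT and were found only in the orientation shown. In PCDHGB7 the gamma word was absent from the printed stretch.

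Among the matched protocadherin genes, each word was found only in genes of its own cluster. Other coding genes held the words as well: the alpha, beta and gamma words stood in 53, 307 and 416 coding windows in all. The alpha word was present in 9 of 13 matched alpha genes and in no beta or gamma gene, against 0.239% of the 22199 coding promoter windows. Its first letter lay between -85 and -42, counted with the start base as 0, with a median of -52. The beta word was present in 13 of 14 matched beta genes and in no alpha or gamma gene, against 1.38% of coding windows, at a median of -65. It lay next to the start itself in PCDHB8, at -1, and at -42 in PCDHB13 and -59 in PCDHB2. The gamma word was present in 11 of 20 matched gamma genes, against 1.87% of coding windows, at a median of -70. The beta word was also the word shared by most genes over all clusters, 13 of 47. Longer words of 12 letters were rarer over the coding windows and kept the family pattern. GTGGCGCTGCAG stood in 10 of 14 beta genes and in 0.0586% of coding windows, CATGATGTCGCT in 8 of 13 alpha genes and 0.036%, and GGGCGCCGCTGT in 5 of 20 gamma genes and 0.0541%. These percentages include the windows of the clusters themselves. In all, the 3 longer words stood in 13, 8 and 12 coding windows, so the clusters made up much of each share. All words were picked from these same promoters, so their frequency there describes the clusters and was not tested. A CTCF-type sequence (CCA, any 2 bases, AG, any 2 bases, GG) on either strand occurred in 1 of the 52 windows (1.92%) and in 7.61% of all coding windows. The pattern was searched without mismatches, so its absence from a window does not show that CTCF cannot bind there.

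The promoters of the clusters had a lower median GC content than those of coding genes as a whole. The median GC content was 40.7% over the 52 windows, with a range of 32.3% to 66.0%, against 62.3% over all coding windows. By cluster the medians were 37.3% for alpha, 40.8% for beta and 47.3% for gamma. The ratio of observed to expected CpG had a median of 0.628 in the clusters and 0.737 over all coding windows.

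Accessibility was then taken from the peak lists. A peak list holds a value only where a peak was called, and its normalised tag count is the number of tags in the peak in each 10 M that mapped. The control libraries held 17.2 M and 23.8 M mapped tags and the tazemetostat libraries 19.8 M and 26.6 M, with 26133, 34768, 55313 and 54157 peaks in the order control 1, control 2, tazemetostat 1 and tazemetostat 2. In the same order 742864, 1353842, 2283279 and 2605603 tags lay in peaks. Both treated libraries thus had more peaks and more tags in them over the whole genome, which limits any comparison of calls between the groups. The peak file headers list a fragment length of 200 bp in both controls and 144 bp in both tazemetostat libraries. Whether it was set or estimated from the tags is not given, and this difference and the treatment cannot be told apart. The smallest tag number in the headers corresponded to normalised tag counts of 8.14, 6.72, 7.05 and 6.02. It was no strict floor, as the lowest normalised tag counts listed anywhere were 6.4, 5.04, 5.04 and 4.89. The local background filter had removed 77.0%, 80.0%, 62.7% and 70.9% of the putative peaks, so a start site without a peak may have held tags that were not listed. As a check of the line, 7 of 10 hepatocyte markers had a region called in all 4 libraries at the start, against 32.2% of coding genes. ALB and AFP had no peak there in any library and FOXA2 had one only in tazemetostat 2. Of 8 markers of blood, vessel and stromal cells, 6 had no peak in any library, COL1A2 had one in tazemetostat 1 (normalised tag count 6.55) and CD68 had one in all 4 (18.0, 50.8, 91.7 and 70.4). Over all coding genes 59.1% had a start peak in at least 1 library. The part of other cells in any result was not tested.

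Few protocadherin start sites had a called peak in any library. Within 1 kb of the start of the canonical transcript, a peak was present at 1 of 53 genes in control 1 and at 1 in control 2 (1.89% each), where 36.5% and 43.4% of all coding genes had one. Under tazemetostat 5 genes (9.43%) had a start peak in replicate 1 and 6 (11.3%) in replicate 2, against 54.5% and 51.5% of all coding genes. The share was thus far below that of coding genes in each of the 4 libraries, and the genes with a start peak were more numerous in both tazemetostat libraries than in either control. The mean difference of 4.5 genes gave a two-sided p of 0.3333 in the exact permutation test, and no smaller p is possible with 2 libraries a group. The same number of peaks, 26133, was then taken from every library by tag count. The lowest normalised tag counts kept were 6.4 and 7.98 in the controls, but 15.1 and 13.2 under tazemetostat. Of the tazemetostat start peaks only that of PCDHB2 in replicate 2 reached these floors, so the difference turned to -0.5 genes by the cut itself. It fell to 1.5 genes among peaks with a local fold of at least 8, to 1 gene among peaks reaching 8.14 and to 0.5 among those of at least 10 normalised tags, each with an exact permutation p of 1. In any library at all, 8 of the 53 genes (15.1%) had a start peak, against 59.1% of coding genes.

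**Figure D1:**
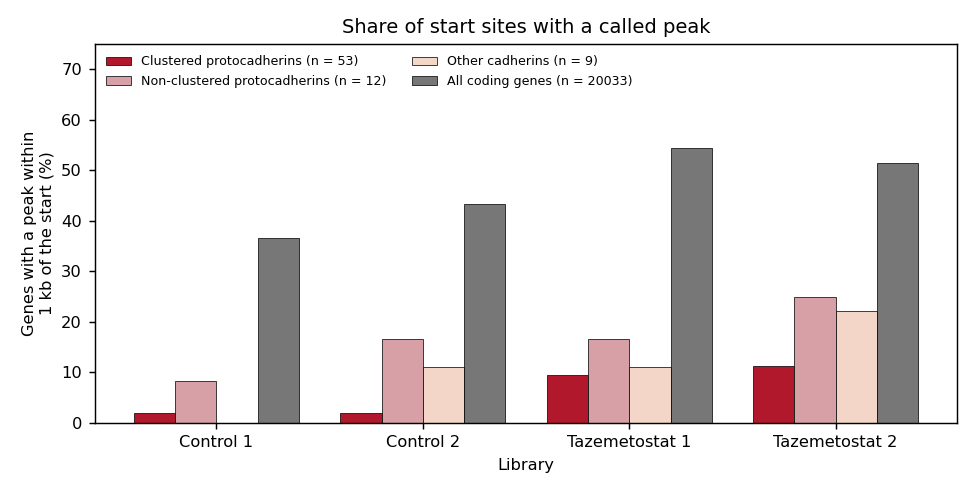
Share of genes with a called peak within 1 kb of the start site, in percent, in each of the 4 libraries, for the 53 clustered protocadherins, 12 non-clustered protocadherins, 9 other cadherins and 20033 coding genes; each bar is 1 library and has no error bar. The clustered genes reach 1.89%, 1.89%, 9.43% and 11.3%, below the bar of all coding genes in every library.

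The 8 genes were PCDHAC2, PCDHB2, PCDHB8, PCDHB13, PCDHGA1, PCDHGB1, PCDHGB4 and PCDHGB7. They were 1 of 15 alpha, 3 of 16 beta and 4 of 22 gamma genes. None of them had a peak at the start in all 4 libraries, where 32.2% of coding genes had a shared region, and none had a region called in both controls alone (0.2% of coding genes). The 3 genes PCDHB2, PCDHB8 and PCDHGB4 had a tazemetostat-only region, called in both treated libraries but in no control, which is 5.66% of the 53 genes and 6.92% of all coding genes. Among genes without any control peak at the start, the same figures were 5.88% (3 of 51) and 10.3%. The share of protocadherin genes with such a region therefore lay near or under the background of all coding genes. Counted over gene bodies extended by 2 kb, 14 of 53 genes (26.4%) had such a region, against 25.0% of coding genes. One region counts for several genes there, because the alpha and gamma genes overlap one another along the chromosome.

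**Figure D2:**
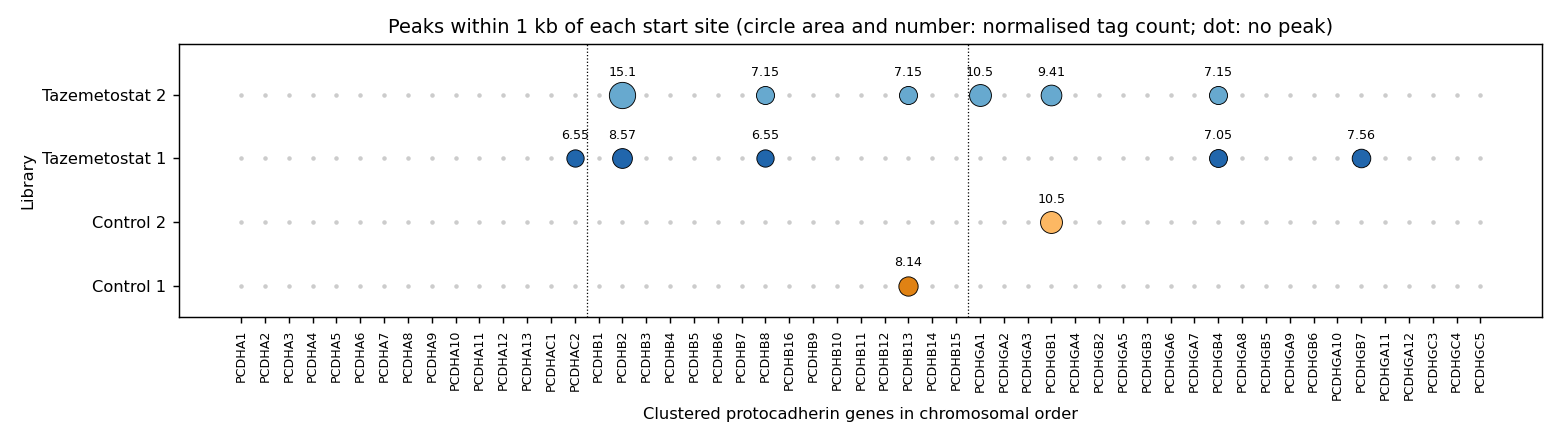
Clustered protocadherin genes in chromosomal order (alpha, beta and gamma divided by dotted lines) against the 4 libraries; circle area and the printed number give the normalised tag count of the peak within 1 kb of the start, and small dots mark no peak. Peaks appear at 1, 1, 5 and 6 genes, and PCDHB2, PCDHB8 and PCDHGB4 carry one in both tazemetostat rows and in no control row.

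In the alpha cluster no gene had a peak across its start in any library. PCDHAC2, one of the 2 C-type genes that lie next to the constant exons at the end of the cluster, had a peak in tazemetostat 1 with a normalised tag count of 6.55. It had no peak in the other 3 libraries. That peak was centred 892 bp downstream of the start, inside the coding part of the exon. The other alpha region lay in the variable exon of PCDHA4, centred 2359 bp downstream of the start, and was called in control 1 alone with 8.73. It had 7 other matches, the best a stretch of 236 bp near PCDHA11 with 89.4% identity. Single-library calls thus made up all of the alpha signal, 1 from each group.

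The beta cluster held the largest tag count at any protocadherin start. At PCDHB2 a region at chr5:141094437-141095006, which contains the start at 141094615, was called in tazemetostat 1 with 8.57 (17 tags, 95% exact Poisson interval 4.99 to 13.7) and in tazemetostat 2 with 15.1 (40 tags, 10.8 to 20.5). Neither control had a peak there. The deposited fold over the surrounding 10 kb was 12.8 and 8.08. PCDHB2 was the only one of the 3 genes called in both tazemetostat libraries alone for which no near-identical copy was found elsewhere in the genome by blastn. Its region also overlaps PCDHB1-AS1, an antisense transcript, and the assay does not say which transcript an open site serves. The value in tazemetostat 2 lay above the header minimum of both controls, and that in tazemetostat 1 only slightly above the 8.14 of control 1.

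PCDHB8 and PCDHB13 are near copies of one another. The PCDHB8 region, chr5:141177577-141177915, spanned the start and was called in tazemetostat 1 with 6.55 (13 tags, 3.49 to 11.2) and in tazemetostat 2 with 7.15 (19 tags, 4.31 to 11.2). Neither control had a peak there, but both values lay under the header minimum of control 1, so the absence of a call in control 1 is not a measured difference. The 6.55 of tazemetostat 1 also lay under the header minima of control 2 (6.72) and of tazemetostat 1 itself (7.05). The 7.15 of tazemetostat 2 lay above the 6.72 of control 2, but its interval included that minimum. For neither value is the absence of a call in control 2 a measured difference. All 339 bp compared matched the start region of PCDHB13 with 95.3% identity. At PCDHB13 itself a peak across the start was called in tazemetostat 2 alone, at 7.15 (19 tags). A second PCDHB13 peak was called in control 1 alone, at 8.14, in the coding exon 831 bp downstream, and it matched PCDHB8 over 294 bp with 97.6% identity. How tags with more than one possible place were treated is not given in the sources used here, so the tags of the pair may be divided between the genes. Together they gave 2 peaks in tazemetostat 2, 1 in tazemetostat 1, 1 in control 1 and 0 in control 2.

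In the gamma cluster 4 genes had a start peak, and the peak spanned the start in each. PCDHGB1, whose region at chr5:141349963-141350432 had no near copy, was called in control 2 with 10.5 (25 tags, 6.8 to 15.5) and in tazemetostat 2 with 9.41 (25 tags, 6.09 to 13.9). It was not called in either replicate 1 library. The intervals of the control and the treated library overlapped, and PCDHGB1 was the single member called at its start in libraries of both groups at the same place. PCDHGB4, at chr5:141387514-141387856, was called in tazemetostat 1 with 7.05 (14 tags, 3.86 to 11.8) and in tazemetostat 2 with 7.15 (19 tags). It had no control peak, again at values under the header minimum of control 1. Both values lay above the 6.72 of control 2, but their intervals (3.86 to 11.8 and 4.31 to 11.2) included it. The missing control calls are thus not a measured difference. The PCDHGB4 region matched PCDHGB5 over 309 bp with 93.9% identity.

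PCDHGA1, the first gene of the gamma cluster, was called across its start in tazemetostat 2 alone with 10.5 (28 tags, 7 to 15.2), in a region without a near copy. PCDHGB7 was called in tazemetostat 1 alone with 7.56 (15 tags, 4.23 to 12.5), and 252 bp of its region matched PCDHGB6 with 95.2% identity. Both calls rest on 1 library. Away from the starts, a second peak lay in an exon of PCDHGA1 in tazemetostat 1 (8.57), centred 3996 bp downstream of the start. That region had 11 other matches, the best over 137 bp on chromosome 3 with 81.8% identity. The shared intron of the cluster, 3337 bp after the PCDHGC5 start, held a peak of 10.6 in tazemetostat 1. The last constant exon, common to all 22 gamma genes, held the highest tag count of any member region, 16.4, in control 2 alone.

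The 17 peaks were small. They held 13 to 40 tags each, with a median of 19, and normalised tag counts of 6.55 to 16.4 with a median of 8.57. Of these, 11 had the minimum length of 300 bp and 7 had a normalised tag count under 8.14, the header minimum of control 1. Of the 13 regions 9 were called in 1 library only, 3 were tazemetostat-only, and 0 were called in all 4. Over the genome 13.7% of the 80551 merged regions were of the tazemetostat-only kind, 37214 were called in 1 library only and 16430 in all 4. Peaks assigned to the genes numbered 2 in each control, and 7 and 6 under tazemetostat (2 ± 0 against 6.5 ± 0.707, SD, n = 2 each). The two-sided exact permutation p was 0.3333. The tag density per kilobase of called length was not higher under tazemetostat. It was 28.1 and 29.4 normalised tags per kilobase in control 1 and control 2 and 25.5 and 24.5 in the treated libraries. The difference was -3.75 with the same exact permutation p of 0.3333.

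**Figure D3:**
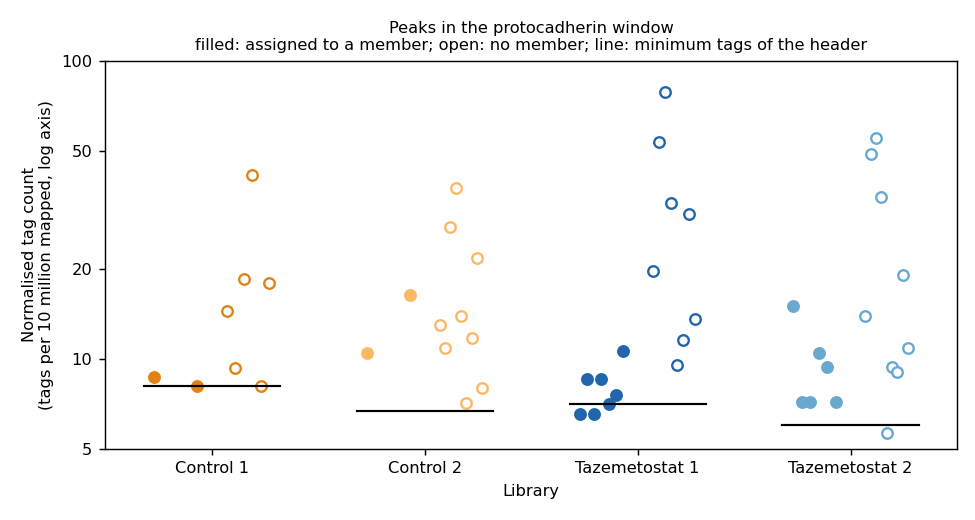
Normalised tag count (tags per 10 M mapped, log axis) of every peak in the window in each of the 4 libraries; filled points are assigned to a clustered protocadherin, open points to none, and the black line is the header's minimum tag number on the same scale. The filled points lie between 6.55 and 16.4, near the line, while the open points reach 78.6 in tazemetostat 1.

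Most of the tazemetostat peaks lay at start sites. Of the peaks assigned to the genes, 4 of 7 in tazemetostat 1 and 6 of 6 in tazemetostat 2 spanned an annotated start. In the controls 0 of 2 and 1 of 2 did so. The difference in position was not tested, since the controls gave 4 peaks in all. The same share was not counted for the peaks of all coding genes, so it is not shown to be particular to these genes. The starts of PCDHB8 and PCDHB13, both among those spanned, are near copies.

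**Figure D4:**
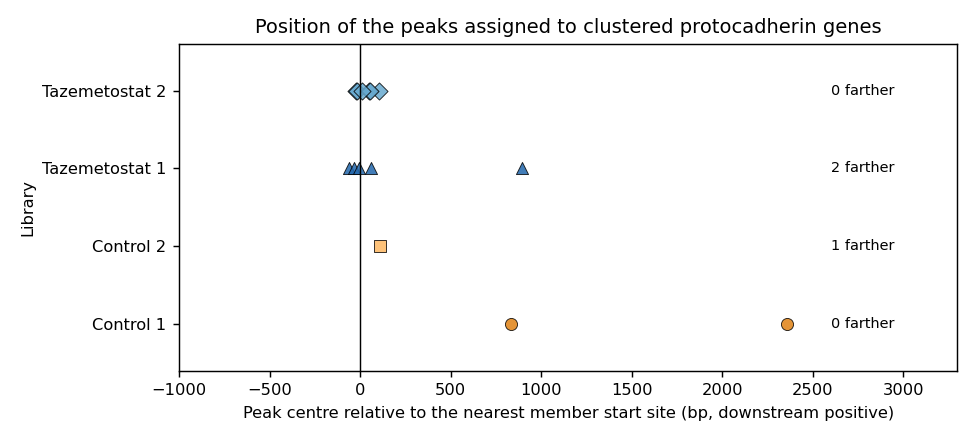
Distance in bp from the nearest protocadherin start site to the centre of each assigned peak, for the 4 libraries (positive is downstream); peaks more than 2500 bp away are counted at the right. In tazemetostat 2 all 6 centres sit close to the start, and in control 1 the centres sit 831 and 2359 bp downstream.

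Genes with and without a start peak were set against the promoter features. The median GC content was 47.5% over 10 windows of the 8 genes with a start peak and 39.2% over 42 windows of the 39 matched genes without one. In the beta cluster the 3 genes with a peak had 43.3% to 46.3% and the 11 matched genes without had 33.3% to 43.0%. These groups narrowly did not overlap, but PCDHB8 and PCDHB13 are near copies, and PCDHB6 and PCDHB11 had no window. In the gamma cluster the groups overlapped, with 36.3% to 58.7% in the 4 genes with a peak and 32.3% to 65.0% in the other 16. In the alpha cluster the 1 gene with a peak, PCDHAC2, had 63.0%, inside the 33.7% to 66.0% of the 12 without. The same comparison was not made over all coding genes. The beta word was present in 3 of 3 beta genes with a start peak and the gamma word in 3 of 4 gamma genes with one. Since most beta genes without a peak held the beta word as well, the word did not separate them.

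**Figure D5:**
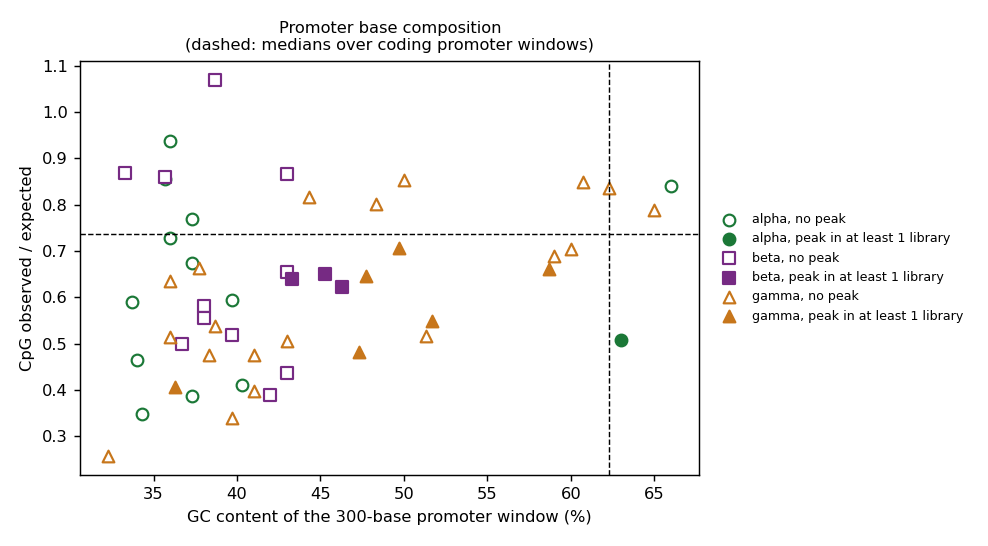
GC content (percent) and the observed over expected CpG ratio of each 300-base promoter window of the matched genes, by cluster, filled where the gene had a start peak in at least 1 library; dashed lines are the medians over coding windows. Beta genes with a peak lie at 43.3% to 46.3%, at the upper end of their cluster, whereas gamma genes with a peak lie among the others.

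No peak was found at the start of the remaining 45 genes in any library. In the alpha cluster these were PCDHA1 to PCDHA13 and PCDHAC1. In the beta cluster they were PCDHB1, PCDHB3 to PCDHB7, PCDHB9 to PCDHB12 and PCDHB14 to PCDHB16. In the gamma cluster they were PCDHGA2 to PCDHGA12, PCDHGB2, PCDHGB3, PCDHGB5, PCDHGB6 and PCDHGC3 to PCDHGC5. A site with fewer tags than the caller required would not have been listed, so these starts are without a call and not shown to be closed.

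The density of called regions was close to that of the genome. Between the first and last base of the genes, 0.727 Mb, there were 18 merged regions, or 24.8 per Mb, and the primary chromosomes as a whole had 25.3 per Mb. Regions called in all 4 libraries numbered 0 in this span, against 5.2 per Mb in the genome. Tazemetostat-only regions stood at 5.5 per Mb (4 regions) against 3.46 per Mb. The fourth of these was at the start of TAF7, a subunit of the general transcription factor TFIID that lies between the beta and gamma clusters, with 9.57 and 9.41 in the tazemetostat libraries and no control peak, and tazemetostat 1 had a further peak of 11.6 beside it. Of the other coding genes that begin in the window, ZMAT2 had a shared region, and SLC25A2 and ENSG00000279983 had none.

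Over the whole window the libraries had 8, 11, 15 and 15 peaks (9.5 ± 2.12 against 15 ± 0, SD, n = 2 each), and the exact permutation test of the difference of 5.5 gave 0.3333, two-sided. The summed normalised tag count was 126.7, 178.5, 305.9 and 263.4, over 3474, 5475, 6599 and 7141 bp of called length. Per kilobase this was 36.5, 32.6, 46.4 and 36.9, so tazemetostat 2 nearly coincided with control 1. Most of the sum came from outside the genes, 109.9, 151.6, 250.5 and 207.0. With equal numbers of peaks the difference in peak number reversed to -3 peaks and that in summed normalised tag count fell from 132.1 to 56.34. The lowest normalised tag counts retained were then 6.4 and 7.98 in the controls and 15.1 and 13.2 under tazemetostat, and of the tazemetostat peaks at the genes only the PCDHB2 peak of replicate 2 reached these levels.

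A test of tag counts was possible only for regions with exactly 1 peak in each library, 15383 in the genome. No protocadherin region met this, so none of the 53 genes has a tested change. In the window 5 regions did, all outside the genes. In limma on log2(normalised tag count + 1), with Benjamini-Hochberg adjustment, 2 of them were higher under tazemetostat, where 42.7% of tested regions were higher and 0.247% lower. Both hold vault RNA genes, small noncoding RNAs, upstream of the alpha cluster. At VTRNA1-3 the counts were 8.14, 13.9, 33.3 and 35.0, a log2 change of 1.59 (SE 0.31, limma adjusted p = 0.00482), and at VTRNA1-1 they were 18.6, 27.7, 53.4 and 48.9, a log2 change of 1.14 (SE 0.30, limma adjusted p = 0.0135). VTRNA1-2 with 41.3, 37.4, 78.6 and 55.0 did not pass (limma adjusted p = 0.0553). The 8.14 of control 1 at VTRNA1-3 equalled the header minimum of that library. Called lengths at VTRNA1-3 were 300, 505, 543 and 735 bp. Per kilobase of peak the log2 changes were 0.958 for VTRNA1-3, 0.775 for VTRNA1-1 and 0.558 for VTRNA1-2, and all 3 passed. With at least 10 normalised tags VTRNA1-3 could not be tested, and VTRNA1-2 passed (limma adjusted p = 0.0353). The median of all tested regions was itself shifted by 0.70. With libraries centred on their median, the log2 changes were 0.83 for VTRNA1-3 and 0.38 for VTRNA1-1, and neither passed (limma adjusted p = 0.276 and 0.61).

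Relatives of the clustered genes were listed for comparison. Of 12 non-clustered protocadherins, which are separate genes with the same kind of extracellular repeats, 9 had no start peak in any library. PCDH9 had a shared region, PCDH20 was called in control 2 and both tazemetostat libraries (5.88, 9.07 and 10.2) and PCDH15 in tazemetostat 2 alone (6.78). Of 9 other cadherins, most of them classical cadherins of cell junctions, only CDH2 and CDH11 had a start peak in any library, and 0 had a shared region. Most starts of both lists therefore also had no peak, whereas 59.1% of coding genes had one in at least 1 library. Of 14 factors known to act on the clusters, 13 had a start peak in at least 1 library and 8 had a shared region there. Over all coding genes the shares were 59.1% and 32.2%. CTCF had 32, 26.5, 51.4 and 55.7 and RAD21, a cohesin subunit, had 12.8, 12.2, 22.2 and 30.9, so both were called in every library. SMCHD1, a chromatin protein known to repress genes of the clusters, had start peaks in 3 libraries, with summed normalised tag counts of 8.82 in control 2, 35.8 in tazemetostat 1 and 24.8 in tazemetostat 2, and no peak in control 1. DNMT3B, a DNA methyltransferase, was called in tazemetostat 1 alone (19.1), and WIZ had no peak.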

How the data were processed

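ATAC-seq was done on 4 HepG2 libraries, grouped by their titles. The submitters' processing notes name Trim Galore 0.6.6 for trimming, Bowtie2 2.3.5.1 for alignment (hg38) and HOMER 4.11.1 for peaks, which were called per library. The normalised tag count, deposited by the authors as a signal, gives tags per 10 M mapped tags. The deposited score was not used. The deposited fold ratio over local background was used to filter peaks in an alternative and is printed for PCDHB2, and the deposited p-value was not used. Per the file headers the local filter was a fold of 4 and a Poisson p of 0.0001.

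Peaks overlapping by 1 bp were merged. Start sites were those of canonical transcripts (GENCODE 44) with 1 kb on either side. Tag numbers were the normalised tag count multiplied by the mapped tags, and their sums equalled the header totals. Their intervals cover counting error only, and no molecular identifiers were mentioned. limma 3.58.1 in R 4.3.3 was run on log2(normalised tag count + 1), which understates changes of low values, with a threshold of 0.05. It was run on simulated data in which few regions changed and no shift was common to all. In the real data the median of all tested regions shifted by 0.70, so the simulation cannot show how limma behaves there. The merging was run on simulated peaks that lay far apart, so it was not tried on crowded peaks. Near copies were sought with blastn (word of 28 bases, expect 1e-20). Python 3.11.15 was used for the rest.

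Every gene with a start peak was named, the others together, and non-members when they start in the window or belong to a list and stand apart. Regions and 12-letter and cluster-specific words were named after their values were seen. The members and lists were chosen with earlier results of these data known. Alternatives were other filters, windows, overlaps, scalings, equal peak numbers and leaving out each library.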

Additional observations from a re-analysis of the deposited data

How the results depend on the processing

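The number of libraries and the small peaks limit these results. The main counts were 4 tazemetostat-only, 1 control-only and 5 shared regions in the window, 3 genes with a tazemetostat-only region at the start and 14 in the body. With a local fold of at least 8, 0 control-only and 0 shared regions were left, with 1 gene at the start and 1 in the body, and no window region could be tested in limma. With a normalised tag count of at least 10, 1 tazemetostat-only and 0 control-only regions were left, with 0 genes at the start and 0 in the body. Requiring 8.14, the header minimum of control 1, an alternative added after seeing the data, left 1 gene at the start (PCDHB2) and 1 in the body. With equal numbers of peaks, 0 tazemetostat-only regions, 0 genes at the start and 0 in the body were left. Under the unequal floors of that cut the differences turned to -3 window peaks and -0.5 start sites with a peak. The difference of 5.5 window peaks fell to 3.5 at a local fold of at least 8, 2.5 at 8.14 and 1.5 at 10 normalised tags, that of 4.5 start sites to 1.5, 1 and 0.5, and that of 132.1 in summed normalised tag count to 75.09, 112.2 and 102.1, or 56.34 with equal numbers of peaks. In limma, 2 window regions were higher, 0 after centring, 3 with a pseudocount of 5 and 3 per kilobase of peak; over the genome centring gave 0 calls.

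Leaving out each library in turn gave 4 to 9 tazemetostat-only regions, 1 to 4 control-only, 5 to 6 shared, 3 to 5 genes at the start and 14 to 40 in the body. The differences ranged from 4 to 7 window peaks, 4 to 5 start sites and 106.2 to 158 in summed normalised tag count. The highest counts came without tazemetostat 2 (9 regions, 5 genes at the start, 40 in the body), then without tazemetostat 1 (8 regions, 5 genes at the start). Control-only regions numbered 4 without control 1 and 3 without control 2. A class then needs fewer libraries by construction. With 1 library left in a group, limma took its spread from the other group. It called 0 to 2 window regions: 1 without control 1, 0 without either tazemetostat library and 2 without control 2.

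Libraries with the same number did not deviate together (r = -0.00246 across regions), so the numbers were not treated as pairs. A replicate block in limma gave 2 window regions, with 5046 higher and 27 lower in the genome. The count-based tests and scalings listed as alternatives were not run, although tag numbers were recovered.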
